A study of Bos taurus with 8 samples.

Results

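Major histocompatibility complex (MHC) class I genes and the genes that load class I molecules with peptide were read from Agilent bovine expression arrays of glial cultures exposed to HIV-1 proteins. The members are the probes whose gene name on the array is spelled exactly BOLA, BOLA-A, BOLA-N, BOLA-NC1, B2M, TAP1, TAP2 or TAPBP, 29 probes of 8 gene names among 51282 probes of 32429 gene names. Of these, 19 read class I heavy chains (11 BOLA, 1 BOLA-A, 4 BOLA-N and 3 BOLA-NC1), 5 read B2M, 3 read TAP1, and TAP2 and TAPBP have 1 each. Probes were tested if all arrays of some group showed them well above background. In this way 28 member probes were tested, each of them well above background on all 8 arrays. The probe left out is the B2M probe A_73_P167762, which was well above background on 0 of 8 arrays. Its sequence is the reverse complement of another B2M probe, A_73_P109111, so it reads the opposite strand.

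The cells are given as primary bovine Müller glia, taken from eyeballs of cattle and grown for 18 to 21 days. They form the groups TAT (HIV-1 TAT at 100 ng/ml, 3 arrays), Gp120 (HIV-1 gp120 at 60 ng/ml, 3 arrays) and Control (2 arrays), with an exposure of 24 h. Replicate letters A, B and C mark the TAT and Gp120 samples, and letters A and B the Control samples, so letter C has no control. The groups rest on the sample titles alone, because the treatment text is the same for every sample, controls included, and could also be read as both proteins given together. The extraction text speaks of astrocytes. What the letters stand for, such as cultures, animals or days, is not stated, and p-values here reflect the spread among these arrays alone, which may be technical.

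Class I molecules show peptides from inside the cell to CD8 T cells. Each consists of a polymorphic heavy chain, which holds the peptide in a groove of its alpha 1 and alpha 2 domains, and the invariant light chain beta-2-microglobulin, the product of B2M. TAP1 and TAP2 form the transporter that pumps peptides from the cytosol into the endoplasmic reticulum, and tapasin, the product of TAPBP, holds empty class I molecules at that transporter. Cattle carry several classical heavy chain genes whose number differs between haplotypes, and nonclassical genes, of which BOLA-NC1 is one. Interferons raise the whole set in most cell types, glia included. In the RefSeq gene order of cattle (assembly ARS-UCD2.0) TAP1 lies between the immunoproteasome genes PSMB8 and PSMB9 on chromosome 23, with TAP2 close by.

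Because cattle heavy chain genes resemble each other closely, the probe sequences show what each name on the array can tell apart. All member probes are 60 bases long. The array annotation placed 14 of the 19 heavy chain probes on chromosome 23 (build Btau_3.1) and gave the other 5 no position on a numbered chromosome. It listed more than 1 RefSeq transcript for 7 of the 19, with up to 4 for 1 probe. The 8 BOLA probes with a position spread over several places, such as chr23:27749511-27749823, chr23:28554532-28554730 and chr23:28655800-28655859, so the name BOLA covers more than 1 locus. Probes A_73_P107911 and A_73_P109228, named BOLA on the array, are annotated to transcripts that RefSeq now gives to JSP.1, another class I gene.

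The overlapping probes from the start of the cytoplasmic tail are shown first, since 1 of them had the lowest p of all members against Control and another differed between replicate letters. Capitals mark bases that differ between any of them where they overlap.
BOLA A_73_P107911: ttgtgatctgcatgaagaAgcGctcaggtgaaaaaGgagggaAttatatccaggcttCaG
BOLA A_73_P109228: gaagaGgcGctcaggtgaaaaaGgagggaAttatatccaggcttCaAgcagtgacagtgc
BOLA-N A_73_P035281: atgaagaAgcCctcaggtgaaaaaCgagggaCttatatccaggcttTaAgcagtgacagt
The 2 BOLA probes share 47 positions and differ at 2 of them, A19G and G60A. The BOLA-N probe shares 49 positions with A_73_P107911 and differs at 5, which are G22C, G36C, A43C, C58T and G60A. Positions here and below are counted from 1 at the 5′ end of the probe named first.

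Further BOLA probes read the end of the tail, and 2 of them, A_73_P041976 (chr23:28656079-28656442, minus strand) and A_73_P108026 (chr23:27846342-27846701, plus strand), cover the same 60 positions at different loci.
BOLA A_73_P041976: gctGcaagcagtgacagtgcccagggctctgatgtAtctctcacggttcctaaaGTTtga
BOLA A_73_P108026: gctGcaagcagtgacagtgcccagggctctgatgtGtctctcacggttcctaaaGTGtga
BOLA A_73_P062321: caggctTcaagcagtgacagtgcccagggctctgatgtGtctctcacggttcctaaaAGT
The first 2 differ at 2 of 60 positions, A36G and T57G. With so few differences, signals of these probes can come from transcripts of more than 1 class I gene or allele, and they are reported as uncertain between genes.

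Other probes read the alpha 1 domain, where peptide-binding residues vary. These are shown because the BOLA-N probe among them had the clearest difference between replicate letters.
BOLA A_73_P098606: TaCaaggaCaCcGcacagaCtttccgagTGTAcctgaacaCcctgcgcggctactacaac
BOLA-N A_73_P098656: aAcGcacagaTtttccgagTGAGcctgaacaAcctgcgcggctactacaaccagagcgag
BOLA-NC1 A_73_P050856: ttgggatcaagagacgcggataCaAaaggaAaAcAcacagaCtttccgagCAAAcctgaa
The BOLA and BOLA-N probes, at chr23:28658902-28658958 and chr23:28601859-28601917, overlap by 51 positions and differ at 5 (C11A, C20T, T31A, A32G and C41A). The BOLA-NC1 probe, at chr23:28486831-28486890, overlaps the BOLA probe by 38 positions and differs at 8.

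All 8 arrays came from 1 slide. Once group means were removed, same-letter arrays correlated at 0.32 to 0.70. Control B, however, correlated more with letter C (TAT C 0.40, Gp120 C 0.36) than with its own letter (TAT B 0.32, Gp120 B 0.33). Between letters 4047 of 31548 probes (12.8%) differed in a limma F-test that also held the group (adjusted p under 0.05, Benjamini-Hochberg over all probes). The scan of Gp120 B and Gp120 C was not that of the other 6 arrays. All letter A arrays and Control B lay in slide row 1, and TAT B, Gp120 B and both letter C arrays in row 2. With slide row as a block 178 probes differed between letters, and with scan as a block 1542. The 75th percentile of the signal was 147 to 237 per array, 55.5% to 64.6% of spots were well above background, and 0 spots were saturated. Of 11 Müller glia markers on the array 7 were well above background on all 8 arrays, but the defining RLBP1 was so on at most 2 arrays and KCNJ10 on 1, and GFAP on 2. Of 12 microglia and macrophage markers 11 were well above background on all 8 arrays, as were 5 of 6 fibroblast markers and 5 of 8 T, B and NK cell markers, and no probe of 3 photoreceptor or 3 pigment epithelium genes passed the filter. In such bulk RNA, fewer cells of a type and less RNA per cell cannot be told apart.

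Values are log2 signal minus the 75th percentile of the array, called the level below. Among the heavy chains the brightest BOLA probe, A_73_115812 (chr23:28655800-28655859), stood at levels of 7.75, 7.81 and 7.79 in TAT A, B and C, at 7.48, 7.64 and 8.08 in Gp120 A, B and C, and at 7.72 and 7.20 in Control A and B. The 3 TAT arrays lay close together and above both Control arrays, while the Gp120 arrays reached from below Control A to the highest value of the 8. The TAT minus Control difference was 0.32 on the log2 scale (SE 0.27, 95% interval -0.29 to 0.94, limma adjusted p = 1) and the Gp120 minus Control difference 0.27 (SE 0.27, adjusted p = 0.965). Without Control B these differences were 0.06 and 0.01, and without Control A 0.58 and 0.53. By mean level the order was TAT, Gp120, Control, and no neighbouring groups differed beyond their spread.

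BOLA-A, by name a heavy chain gene, was read by 1 probe in the transmembrane part, at levels of 5.71, 5.07 and 5.47 in TAT, 5.44, 4.87 and 5.97 in Gp120 and 5.13 and 4.70 in Control. Letter B was lowest in each of the 3 groups. The differences were 0.50 (SE 0.36, adjusted p = 1) for TAT minus Control and 0.51 (SE 0.36, adjusted p = 0.965) for Gp120 minus Control. The brightest BOLA-N probe, A_73_108788, stood at levels of 4.33, 4.81 and 4.06 in TAT, at 3.99, 3.65 and 4.09 in Gp120 and at 3.67 and 4.21 in Control. Its TAT B value was the highest of the 8 and its Gp120 B value the lowest, and the groups overlapped (TAT minus Control 0.46, SE 0.30; Gp120 minus Control -0.03, SE 0.30). The nonclassical BOLA-NC1, on its brightest probe A_73_P109236, stood at levels of 6.81, 6.71 and 6.92 in TAT, 6.53, 6.07 and 7.19 in Gp120 and 6.61 and 6.50 in Control. TAT lay above Control on every array (0.26, SE 0.33, adjusted p = 1), and Gp120 held both the lowest and the highest of the 8 values.

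**Figure D1:**
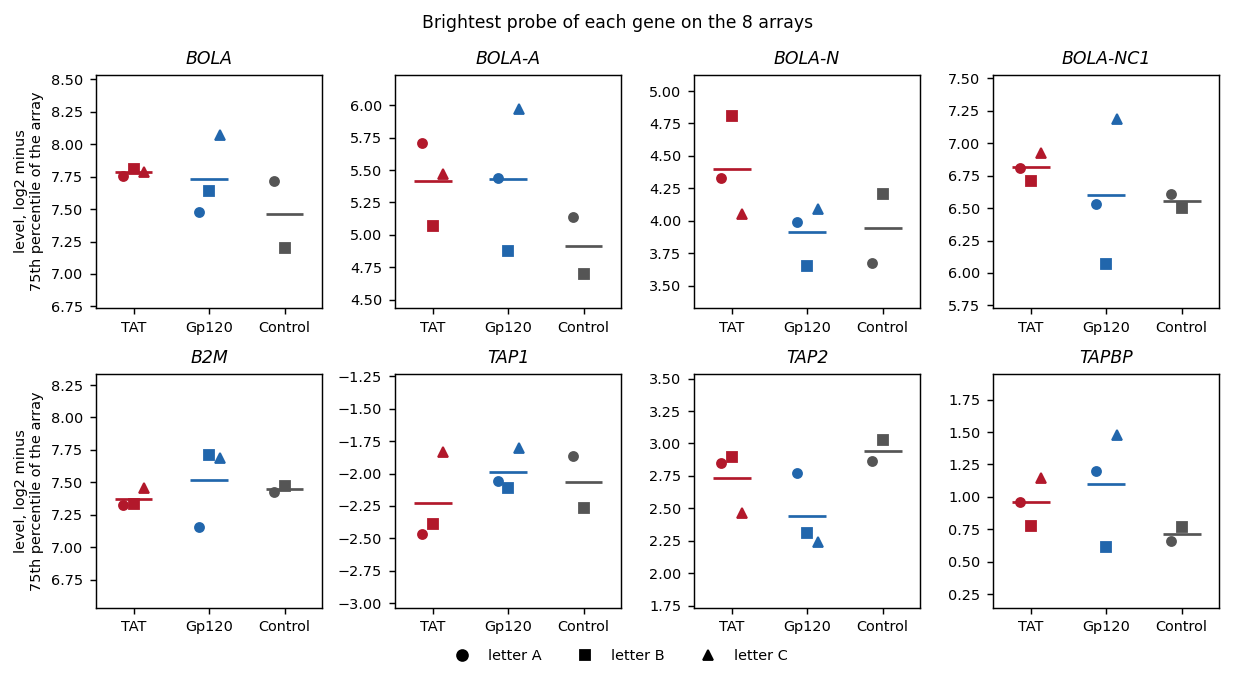
Level (log2 signal minus the 75th percentile of the array) of the brightest probe of each of the 8 genes, in separate panels that all span the same height, with TAT, Gp120 and Control from left to right. Points are single arrays, symbols give the replicate letter and lines are group means; BOLA, BOLA-NC1 and TAPBP have all 3 TAT arrays above both Control arrays, and TAP2 has all 3 Gp120 arrays below both.

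B2M encodes the light chain shared by all class I molecules. Its brightest probe, A_73_P099506 (chr10:106114360-106114419), stood at levels of 7.33, 7.33 and 7.46 in TAT, 7.15, 7.71 and 7.69 in Gp120 and 7.43 and 7.48 in Control. The differences were -0.08 (SE 0.24, 95% interval -0.64 to 0.48) for TAT minus Control and 0.07 (SE 0.24, 95% interval -0.49 to 0.62) for Gp120 minus Control. Over the 4 B2M probes tested the differences ran from -0.08 to 0.28 with TAT and from -0.07 to 0.18 with Gp120. The SD of a B2M probe over the 8 arrays was 0.18 in the median, against 0.43 for a heavy chain probe and 0.37 for any probe tested. Heavy chain probes about as bright as B2M also had SDs below that heavy chain median. These were 0.26 for BOLA A_73_115812, 0.24 for BOLA A_73_P098582 and 0.33 for BOLA-NC1 A_73_P109236. The B2M probes were unlike in their SD. Probe A_73_116322 had an SD of 0.453, with levels of 6.57, 6.80 and 6.03 in TAT, 6.03, 7.02 and 6.05 in Gp120 and 6.63 and 5.74 in Control, so that it was highest in Gp120 B and lowest in Control B.

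The transporter genes gave no common direction. TAP1 on its brightest probe, A_73_P390156, stood at levels of -2.47, -2.39 and -1.83 in TAT, -2.06, -2.11 and -1.80 in Gp120 and -1.87 and -2.27 in Control, with full overlap of the groups. Probe A_73_P337561 of TAP1 stood at -2.14, -3.35 and -2.41 in TAT, -1.92, -2.28 and -1.77 in Gp120 and -2.31 and -2.96 in Control. On it the Gp120 arrays lay above both Control arrays (0.65, SE 0.40, adjusted p = 0.965). TAT minus Gp120 was -0.65 on that probe (SE 0.36, adjusted p = 0.9999), and in the fit with replicate letters as a block its interval ran from -1.14 to -0.16 (unadjusted p = 0.0173, adjusted p = 0.478 by limma).

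All 3 TAP1 probes had a TAT minus Gp120 difference below 0, between -0.65 and -0.24. For TAP2, the partner of TAP1, the probe A_73_P051136 stood at levels of 2.85, 2.89 and 2.46 in TAT, 2.77, 2.31 and 2.24 in Gp120 and 2.86 and 3.03 in Control. Every Gp120 array lay below both Control arrays, by a mean of -0.51 (SE 0.26, 95% interval -1.10 to 0.09, adjusted p = 0.965). TAPBP, which encodes tapasin, stood at levels of 0.96, 0.78 and 1.14 in TAT, 1.197, 0.62 and 1.47 in Gp120 and 0.66 and 0.77 in Control. Its TAT arrays lay above both Control arrays (0.25, SE 0.29, adjusted p = 1), while Gp120 B was the lowest array and Gp120 C the highest. The TAP1, TAP2 and TAPBP probes did not differ between any groups past the threshold.

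TAP1 was read at 3 places of its transcript, all in the coding region and without overlap, and the probes are shown because 1 of them carries the Gp120 values above.
TAP1 A_73_P390156: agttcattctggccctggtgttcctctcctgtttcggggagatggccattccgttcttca
TAP1 A_73_P337561: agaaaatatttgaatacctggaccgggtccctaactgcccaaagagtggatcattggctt
TAP1 A_73_P035801: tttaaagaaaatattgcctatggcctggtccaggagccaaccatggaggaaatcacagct
They lie on the minus strand of chromosome 23 at chr23:7391834-7392322, chr23:7387745-7387804 and chr23:7386309-7386368 (Btau_3.1).

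Which members differ between HIV-1 protein and control cells was asked first. In the limma fit over all 31548 probes 0 of the 28 members passed an adjusted p of 0.05 for TAT minus Control, where 0% of all probes did, and likewise 0 for Gp120 minus Control (0% of all) and 0 for TAT minus Gp120 (0% of all). With replicate letters as a block the counts were 0 as well. At an unadjusted p under 0.05, 1 member stood out for TAT minus Control (1.37% of all probes), 0 for Gp120 minus Control (4.23%) and 0 for TAT minus Gp120 (3.95%). With the block these counts were 1 (4.13%), 0 (7.44%) and 1 (10.2%), the last being TAP1 A_73_P337561. The member for TAT minus Control is, in both fits, the BOLA tail probe A_73_P107911 shown above. It stood at levels of 2.98, 3.32 and 3.23 in TAT, 2.97, 2.43 and 3.22 in Gp120 and 2.32 and 2.39 in Control. All 6 exposed arrays were above both Control arrays. TAT minus Control was 0.82 (SE 0.28, 95% interval 0.18 to 1.46, unadjusted p = 0.0185, limma adjusted p = 1) and Gp120 minus Control 0.52 (SE 0.28, interval -0.12 to 1.16, adjusted p = 0.965). The overlapping BOLA probe A_73_P109228 gave 0.41 (SE 0.44) for TAT minus Control, on levels of 2.77, 2.27 and 2.12 in TAT and 2.39 and 1.57 in Control, with overlap.

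Most heavy chain probes had small positive differences from Control, none past the threshold. For TAT minus Control 17 of the 19 heavy chain probes had a difference above 0, and 22 of the 28 members, where 47.0% of all probes did. The median difference was 0.39 over heavy chain probes, 0.28 over all members and -0.02 over all probes. Without Control B the TAT minus Control medians were 0.28 over heavy chain probes and 0.08 over all members, and leaving out Control A in the blocked fit gave a heavy chain median of 0.0074. For Gp120 minus Control the counts were again 17 of 19 and 24 of 28 (50.5% of all probes), with medians of 0.40, 0.33 and 0.004. Both comparisons share the 2 Control arrays. With the letters as a block 23 of 28 members were above 0 in each (45.7% and 49.9% of all probes), and the heavy chain medians were 0.17 for TAT and 0.24 for Gp120. Without the block, the Gp120 heavy chain median was 0.12 without Gp120 C, 0.67 without Gp120 B and 0.24 without Control B, where 14 of 19 probes were above 0 for Gp120 and for TAT alike.

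Among members whose groups did not overlap, 6 of 28 lay higher in TAT than in Control (5.59% of all probes), which are BOLA A_73_115812, A_73_P062321 and A_73_P107911, BOLA-NC1 A_73_P109236 and A_73_P050856, and TAPBP, and 0 lay lower (8.51%). For Gp120, 2 lay higher than in Control (8.00% of all probes), BOLA A_73_P107911 and TAP1 A_73_P337561, and 1 lower (7.61%), TAP2. Between TAT and Gp120 0 members were free of overlap in either direction (3.34% of all probes higher and 4.56% lower). For TAT minus Gp120, 10 of 28 members were above 0 (45.6% of all probes), with a median of -0.06. Over the heavy chains this count rested on single arrays. It was 7 of 19 with all arrays, 3 of 19 without Gp120 B, and 16 of 19 without Gp120 C or without TAT B.

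**Figure D2:**
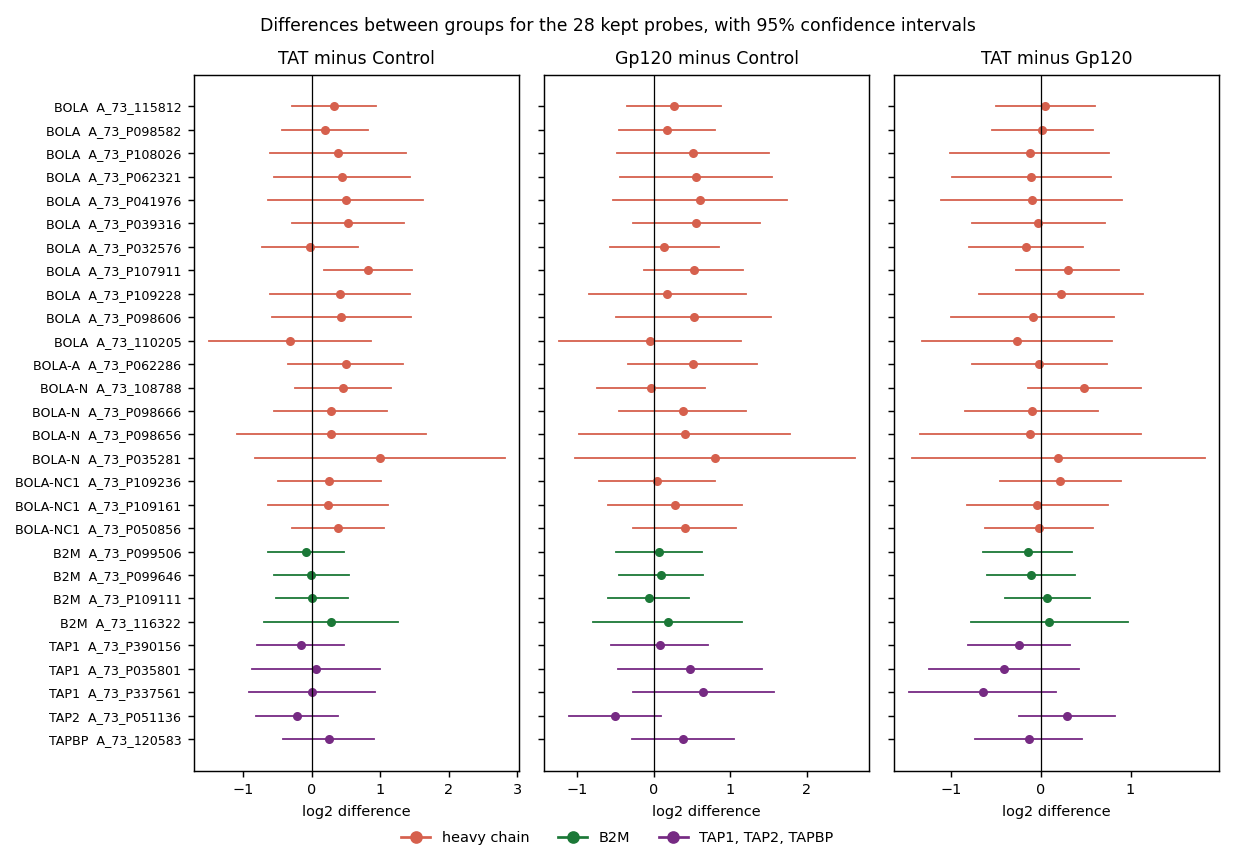
Log2 difference with its 95% confidence interval for each of the 28 members tested, for TAT minus Control, Gp120 minus Control and TAT minus Gp120 from left to right, with heavy chain, B2M and loading genes in different colours. Every interval includes 0 except that of BOLA A_73_P107911 for TAT minus Control, which runs from 0.18 to 1.46, and most heavy chain points lie right of 0 against Control.

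Replicate letters were compared next. Beside the group, 2 of 28 members differed between letters past an adjusted p of 0.05, below the 12.8% of all probes, and both are BOLA-N. At an unadjusted p under 0.05 there were 13 members (33.2% of all probes), of which 11 are heavy chains and 2 are TAP1. BOLA-N A_73_P098656, the alpha 1 probe shown above, stood at levels of 1.07, 0.91 and 0.995 on the letter B arrays of TAT, Gp120 and Control, against 2.44, 2.46 and 2.03 on their letter A arrays, and at 1.88 and 2.38 in TAT C and Gp120 C. The 3 letter B arrays lay below all others. Letter B minus letter A was -1.32 (SE 0.20) and letter C minus letter A -0.24 (SE 0.24), with a limma F-test adjusted p of 0.0205.

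BOLA-N A_73_P035281, the tail probe, stood at levels of 2.56 and 2.99 in TAT C and Gp120 C, against 0.89, 0.90 and 0.06 on the letter A arrays of TAT, Gp120 and Control, and at 1.75, 0.72 and 1.42 on their letter B arrays. Here letter C was high, by 2.05 over letter A (SE 0.40), and letter B stood 0.68 above letter A (SE 0.34, adjusted p = 0.0448 for the letters). The 2 BOLA-N probes thus set different letters apart, letter B low on one and letter C high on the other. The other 2 BOLA-N probes did not pass (A_73_P098666, adjusted p = 0.101; A_73_108788, adjusted p = 0.744, limma). Both calls depended on the processing, as did the number of calls over all probes. When single arrays were left out 0 to 1 members passed, where 1016 to 2444 of 31548 probes did. With the slide row as a block 0 members passed (178 of all probes), and with the scan as a block 0 (1542 of all probes).

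Letter C minus letter B was above 0 for 18 of 19 heavy chain probes (50.7% of all probes), with a median of 0.72. Letter B minus letter A was above 0 for 4 of 19 (47.3% of all probes), with a median of -0.36. Neither letter C array is a Control array, and Gp120 C, like Gp120 B, belongs to the other scan. The part of the scan in these medians was not tested. The 4 B2M probes had a median of -0.10 for letter C minus letter B, and the 3 TAP1 probes 0.50.

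**Figure D3:**
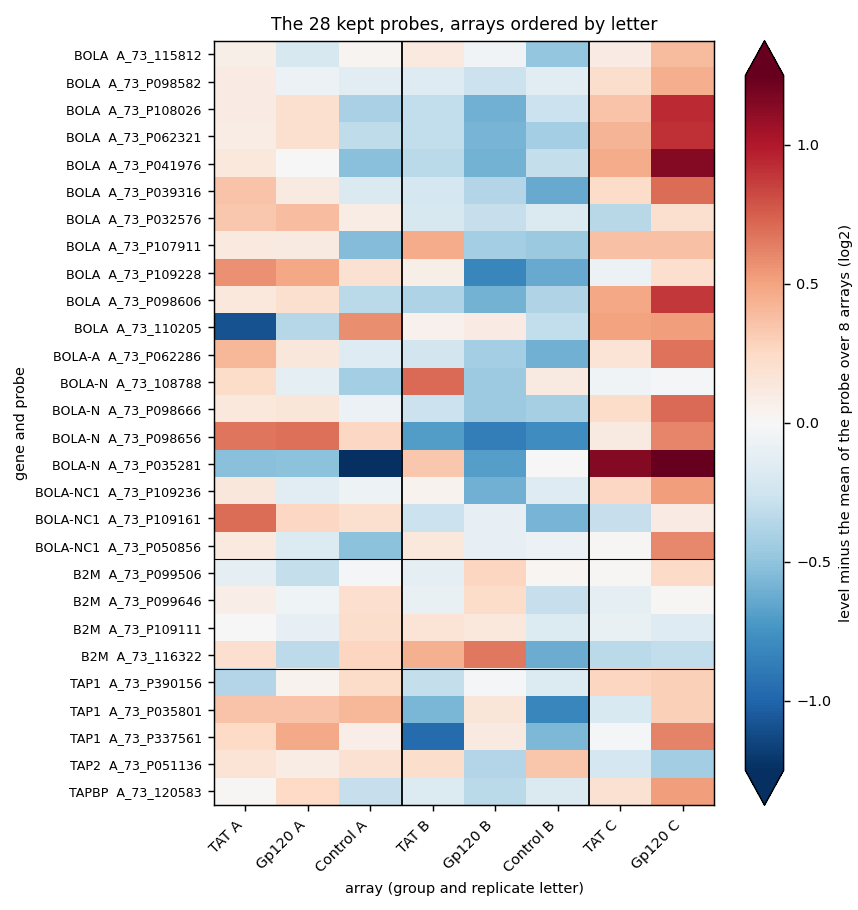
Level of each of the 28 members minus the mean of that probe over the 8 arrays (log2, colour), with arrays ordered by replicate letter and by TAT, Gp120 and Control within a letter. Among the 19 heavy chain rows at the top, Gp120 C is the highest array in 12 and Gp120 B the lowest in 10, while B2M A_73_116322 is highest in Gp120 B and lowest in Control B.

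One array set the highest value for most heavy chains. Gp120 C was the highest of the 8 arrays for 12 of 19 heavy chain probes (18.3% of all probes), and Gp120 B the lowest for 10 of 19 (14.7%). The tail probe A_73_P041976, for example, stood at levels of 5.38, 4.78 and 6.52 in Gp120 A, B and C and at 5.50, 5.04 and 5.84 in TAT A, B and C, against 4.85 and 5.07 in Control A and B. Its companion A_73_P108026 stood at 5.97, 5.18 and 6.71 in Gp120, against 5.37 and 5.50 in Control. The 2 probes, which differ at 2 positions, thus ordered the Gp120 arrays alike.

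Arrays of the same letter were compared pair by pair. Most heavy chain probes were higher in TAT than in Control in both letters, and the direction of Gp120 minus Control and of TAT minus Gp120 differed between letters. TAT A was above Control A for 18 of 19 heavy chain probes (45.7% of all probes), with a median of 0.47, and TAT B above Control B for 14 of 19 (46.8% of all), with a median of 0.21. Gp120 A was above Control A for 16 of 19 (49.2% of all; median 0.30), and Gp120 B above Control B for 6 of 19 (51.2% of all; median -0.11). TAT was above Gp120 for 11 of 19 in letter A (45.9% of all; median 0.09), 17 of 19 in letter B (45.7% of all; median 0.21) and 1 of 19 in letter C (47.0% of all; median -0.43). Each of these sets 1 array against another, so it has no replicate check, and heavy chain probes that overlap or read the same transcripts are not independent of each other. Against the TAT array of the same letter most heavy chain probes were lower in Gp120 B and higher in Gp120 C. Both of these Gp120 arrays belong to 1 scan and both TAT arrays to the other, and the part of the scan in these differences was not tested.

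**Figure D4:**
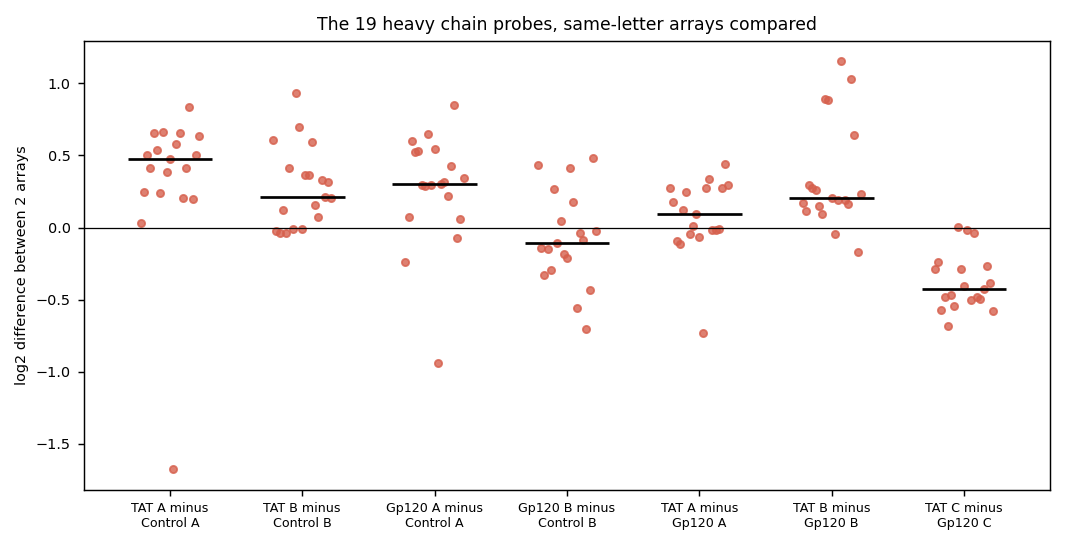
Log2 difference between 2 arrays of the same replicate letter for the 19 heavy chain probes (points) with their median (line). TAT minus Gp120 has 17 of 19 points above 0 in letter B and 1 of 19 in letter C, and Gp120 minus Control has 16 above 0 in letter A and 6 in letter B.

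Levels of other cells' markers moved over the same arrays. The mean level of the 12 microglia and macrophage markers, cells that carry class I at high levels, was 3.82, 3.92 and 3.94 in TAT, 4.18, 3.43 and 4.03 in Gp120 and 4.04 and 3.36 in Control. It was thus lowest in Gp120 B and Control B, where CX3CR1 stood at -4.22 and -5.71, while PTPRC stood at 3.89 and 4.55, its lowest and highest values. For the heavy chains, each of the 19 probes was set against its own mean over the 8 arrays. The median of these deviations was -0.45 in Gp120 B and -0.38 in Control B. It was also below 0 in TAT B (-0.20) and Control A (-0.16), where the microglia and macrophage mean was not low, and 0.11 to 0.60 on the other arrays. Fibroblast markers averaged 4.86, 3.77 and 4.21 in TAT, 3.74, 3.67 and 4.11 in Gp120 and 3.33 and 3.51 in Control, and T, B and NK cell markers 0.60, 0.74 and 0.73 in TAT, 0.45, 0.76 and 1.03 in Gp120 and 0.37 and 0.65 in Control. Pericyte and smooth muscle markers averaged 2.85, 3.61 and 3.25 in TAT, 2.43, 3.53 and 3.12 in Gp120 and 1.74 and 3.29 in Control. All 5 of them had differences above 0 for TAT minus Control (47.0% of all probes; median 0.65) and for Gp120 minus Control (50.5%; median 0.46). So had all 5 fibroblast markers tested, with medians of 0.83 and 0.23. In each list 0 of 5 passed the threshold in either comparison (0% of all probes). Between letters 3 of 5 pericyte and smooth muscle markers passed and 0 of 5 fibroblast markers, where 12.8% of all probes did. Endothelium markers averaged -1.96, -1.79 and -1.43 in TAT, -1.71, -1.82 and -1.09 in Gp120 and -1.96 and -1.58 in Control. Their mean was thus highest in Gp120 C, where VWF stood at 1.62, against its highest value of 2.25 in TAT A. Müller glia markers ranged from 4.33 to 4.77 over the 8 arrays. The part of any cell mix in the heavy chain values was not tested.

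Other genes of the class I pathway were taken from a list of 34 (proteasome subunits, trimming enzymes, chaperones, interferon receptors and their signalling, and transcription factors), of which 31 were tested, each on its brightest probe. The limma fit called 0 of them in each of the 3 comparisons after adjustment, and at an unadjusted p under 0.05 there were 0 for TAT minus Control (1.37% of all probes), 1 for Gp120 minus Control (4.23%) and 1 for TAT minus Gp120 (3.95%). Differences above 0 numbered 14 of 31 for TAT minus Control (47.0% of all probes) and 20 of 31 for Gp120 minus Control (50.5%), with medians of -0.04 and 0.08. The gene behind both counts is IRF2, a repressor and activator of interferon-responsive promoters, with levels of -0.78, -0.65 and -0.44 in TAT, -0.80, -2.50 and -2.001 in Gp120 and -0.43 and -0.78 in Control. It was low only in Gp120 B and Gp120 C, the arrays of the other scan, and not in Gp120 A. The part of the scan in this was not tested. Gp120 minus Control was -1.16 (SE 0.46, adjusted p = 0.965) and TAT minus Gp120 1.14 (SE 0.41, adjusted p = 0.9999).

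For TAT minus Control, genes with small p-values on the list were the proteasome subunits PSMB7 (-0.37, SE 0.24) and PSMB6 (-0.29, SE 0.24) and RFX5, which binds MHC promoters (-0.32, SE 0.23). For Gp120 minus Control they were, beside IRF2, IFNAR1, a chain of the type I interferon receptor (0.73, SE 0.33), and the kinase JAK2 (-0.78, SE 0.45). With the letters as a block the differences of IFNAR1 and JAK2 were 0.52 and -0.48. For TAT minus Gp120 they were, again beside IRF2, IFNAR1 (-0.46, SE 0.29), the peptide-trimming enzyme ERAP1 (-0.26, SE 0.19) and PDIA3, a disulfide isomerase of the loading complex (-0.51, SE 0.42). None of these 7 genes passed the threshold in these comparisons. Of the proteasome subunits that interferon brings in, PSMB8 and PSMB9, the neighbours of TAP1, had TAT minus Control differences of 0.08 (SE 0.43) and -0.11 (SE 0.44). IFNG, the gene of interferon gamma, was well above background on 0 arrays.

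Between the letters 2 of the 31 genes passed, where 12.8% of all probes did. ERAP2, a second trimming enzyme, was low on the letter B arrays, at 1.58, 1.40 and 1.39 in TAT, Gp120 and Control, against 2.79, 2.72 and 2.67 on their letter A arrays, with 2.16 and 2.14 in TAT C and Gp120 C. Letter B minus letter A was -1.27 (limma F-test adjusted p = 0.0114), the same order of letters as on BOLA-N A_73_P098656. JAK2 was low on letter C (-0.59 and -0.85 in TAT and Gp120), by -1.17 against letter A (adjusted p = 0.0271). PSMB10, the third interferon-induced subunit, and IRF1, an activator of class I promoters, followed with letter B minus letter A of -0.98 (adjusted p = 0.0548) and -1.06 (adjusted p = 0.0596).

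Of 13 relatives of class I genes 6 were tested, and 0 passed between groups (0% of all probes). JSP.1, itself a class I heavy chain gene, stood on its brightest probe at levels of 7.004, 7.12 and 7.07 in TAT, 6.75, 6.84 and 7.24 in Gp120 and 6.80 and 6.50 in Control. All TAT arrays were above both Control arrays (0.41, SE 0.24, adjusted p = 1), as on the brightest BOLA probe, and Gp120 minus Control was 0.29 (SE 0.24). CD1E and ULBP3 differed between letters, by -2.41 and -1.96 in letter C against letter A (limma F-test adjusted p = 0.00716 and 0.00852). They are 2 of the 6 relatives tested, where 12.8% of all probes differed between letters. CD1E belongs to the lipid-presenting CD1 family, and ULBP3 to the ligands of the activating receptor NKG2D. FCGRT, the heavy chain of the neonatal Fc receptor, which also pairs with B2M, had differences of 0.28 (SE 0.32) for TAT minus Control and 0.33 (SE 0.32) for Gp120 minus Control. For CD1D they were 0.48 (SE 0.39) and 0.71 (SE 0.39), and for MR1, which presents vitamin metabolites, -0.04 (SE 0.27) and 0.15 (SE 0.27).

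By Pearson's r over the 8 arrays, among 19367 other gene names, the pattern most like the brightest BOLA probe was that of RTN1, a reticulon of the endoplasmic reticulum (0.96), followed by JSP.1 (0.95), a transcript with no symbol on the array, and RAB24, a small GTPase (0.94). For B2M the closest names with a symbol were CCDC124 and SELRC1 (0.97 each), and for TAP1 BPIFA2C (0.96). With 8 arrays that share letters and scan, and so many names compared, these are descriptions only.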

How the data were processed

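RNA of 8 samples (3 TAT, 3 Gp120, 2 Control) was labelled with 1 dye and read on 1 Agilent bovine slide. Per the file headers, the intensity values were made by the authors with Feature Extraction 11.5.1.1 (protocol GE1_1105_Oct12, probe positions on HGSC Btau_3.1). A deposited table of log2 values by gene name was used as an alternative; its making is not given in the labels or headers. From the log2 of each processed signal the 75th percentile of its array was subtracted. Control spots and outlier spots (4 to 37 on an array) were dropped and repeat spots averaged. The 31548 probes tested were well above background throughout at least 1 group. The number of arrays limits the precision.

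Comparisons of groups used lmFit and eBayes of limma 3.58.1, run in R 4.3.3 (no block, all arrays in 1 fit, two-sided, Benjamini-Hochberg over all kept probes, threshold 0.05), and letters with an F-test beside the group. Fits were tested on simulated data with independent noise, no letter, row or scan effects, and planted changes larger than any member difference between groups. That run cannot show how the fits behave with letter effects or small differences. Once group means were removed, same-letter arrays of different groups correlated at 0.32 to 0.70 (7 pairs) and arrays of different letters at -0.59 to 0.40 (14 pairs), so the letters were taken to pair the arrays; with 2 controls, those of Control A and B mirror each other.

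The members and the other lists were chosen with earlier results of these data known, so lists got no test. Values per array are given for the brightest probe of each gene and for members past a threshold. Of the other class I genes, the 4 with the smallest p in each comparison and between letters are named, except 1 gene that is not reported here, and all tested relatives; further genes and probes were named after their values were seen. Probe accessions were looked up in the RefSeq gene table (12 of 29 matched, 3 of 19 heavy chain probes). Alternatives covered background correction, scaling, filters, probe choice, the deposited table, blocks for letter, row and scan, and leaving out single arrays. Figures were drawn with matplotlib 3.10.9 in Python 3.11.15.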

Additional observations from a re-analysis of the deposited data

How the results depend on the processing

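The counts of members past the threshold between groups were 0 under each of 29 alternatives in the 3 comparisons. With the deposited value table, 4 of 19373 names passed for TAT minus Control and 3 for Gp120 minus Control. For TAT minus Gp120 15 names passed there, beside 0 of 8 members in each comparison. The letters' count was 2 members, beside 4047 of 31548 probes. With normexp background correction it was 4, beside 4928 of 31548 probes. It was 0 with no filter on dim probes (1959 of 51211 probes) and with the brightest probe per gene name (2979 of 19375). The deposited value table also gave 0 (1529 of 19373 names). So did slide row as a block (178 of 31548 probes), scan as a block (1542) and the fit within scan 2 (70). Without single arrays the count ran from 0 to 1, beside 1016 to 2444 of 31548 probes. Calls over all probes thus moved as well. The cause was not tested, except that 1 probe per gene name leaves both BOLA-N probes out. The letters' count was 2 with quantile scaling, with median centring and with detection on all 8 arrays. Median member differences ran from 0.0028 to 0.38 for TAT minus Control and from 0.07 to 0.52 for Gp120 minus Control, and for TAT minus Gp120 from -0.24 to 0.21, where 8 of 29 settings turned the sign. With the letters as a replicate block the medians were 0.14, 0.24 and -0.06, and the block changed no call between groups. Heavy chain counts above 0 were lowest with the replicate block and without Control A, at 10 of 19 for TAT and 12 of 19 for Gp120. Signs of single genes were followed on the brightest probe of each name only, or on the name itself in the deposited table. For Gp120 minus Control the sign turned in 15 settings for BOLA-NC1, 13 for B2M, 12 for TAP1, 11 for BOLA-N, 2 for BOLA and 1 for TAPBP, and for TAT minus Control in 1 or 2 settings for BOLA, BOLA-NC1, B2M, TAP1, TAP2 and TAPBP. The letters could not be fitted within slide row 1.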

Other observations

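Further class I probes carry names that the choice of members left out by spelling, and they were picked after their values were seen. The 2 probes named BoLA stood at levels of 5.75, 5.34 and 5.68 and of 5.79, 5.42 and 5.85 in TAT A, B and C, at 5.65, 5.02 and 6.19 and at 5.82, 5.10 and 6.40 in Gp120, and at 5.30 and 5.07 and at 5.47 and 5.38 in Control. Gp120 C was the highest array and Gp120 B the lowest on both. The LOC790811 probe A_73_P109136, which shares a run of at least 40 bases with BOLA A_73_P062321 and A_73_P108026, stood at 5.61, 5.11 and 5.94 in TAT, 5.59, 4.87 and 6.46 in Gp120 and 5.04 and 5.23 in Control. Gp120 C was highest on all 4 LOC790811 probes. The lowest array was Gp120 B on A_73_P109136 and A_73_P098676 (4.87 and 1.07), TAT A on A_73_P209708 (4.39) and Control B on A_73_P045181 (2.40).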
